A study of Mus musculus with 16 samples.

Results

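mmu-miR-342-3p, the mature microRNA of the 3′ arm of the Mir342 hairpin, was followed through 8 mouse cell populations sorted from bone marrow and spleen. It was taken by its name in the array files and is 1 of 604 miRNAs present on both array designs, of which 175 were detected well enough to be tested. It was chosen by the processed signals of these same arrays, scaled per array, which climbed over the 8 populations towards mature cells. Its own levels and differences below are therefore a description and carry no test.

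All cells came from C57Bl/6 mice, female and 6 weeks old, and were sorted and lysed without culture. Of the 5 mature populations, 3 were spleen dendritic cells (DC) from pools of 8 animals, all CD11c+ and CD3-. CD8+ DC were also CD86+, and B220- is listed for CD8+ DC and CD4+ DC but not for CD4-CD8- DC. Plasmacytoid DC (PDC) were B220+, CD11c intermediate, SiglecH+ and CD317+, and Gr1+ monocytes were CD11b+, CD115+ and Gr1+. Both came from marrow pools of 5 animals. The 3 progenitor populations came from marrow pools of 15 animals and carried CD135 and no lineage markers. CDP were CD117 low and CD115+, MDP were CD117+ and CD115+, and MP were CD117+ and CD115-. The labels give MP without spelling it out. CDP are commonly read as common DC progenitors and MDP as macrophage and DC progenitors. Each population had 2 biological replicates. The first replicate of each was hybridised to array design 1 and the second to array design 2, so an SD over 2 arrays includes the difference between designs. All DC subsets other than PDC came from spleen and everything else from marrow, so tissue and maturity cannot be told apart for them.

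A microRNA guides the silencing complex to messenger RNAs that pair with its seed, the bases from position 2 to position 8, and it lowers their stability and translation. A hairpin can give a mature RNA from either arm, and usually 1 arm dominates. Mir342 lies in an intron of Evl, a gene for an Ena/VASP-type regulator of actin. miR-342-3p is known as an abundant miRNA of lymphocytes. In human myeloid leukaemia cells it is known to rise on induced differentiation under the transcription factors PU.1 and IRF1.

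The hairpin is shown because both arms were measured on the arrays, and the arms are set in capitals. In RefSeq for GRCm38.p6 it spans 99 bases of the plus strand at chr12:108658620-108658718, inside Evl at chr12:108554681-108688516.
Mir342 hairpin: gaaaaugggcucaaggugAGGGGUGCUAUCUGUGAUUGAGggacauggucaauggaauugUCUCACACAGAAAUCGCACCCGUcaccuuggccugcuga
The mature arms are shown with their seeds in capitals. miR-342-3p has 23 bases at chr12:108658680-108658702 and miR-342-5p has 22 bases at chr12:108658638-108658659.
miR-342-3p: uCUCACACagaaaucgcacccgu
miR-342-5p: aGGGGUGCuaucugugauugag
Of 1738 mature mouse miRNAs in RefSeq, 0 others share the seed of either arm. No relative with the same seed is therefore described below. The miR-342-3p probes pair mostly outside the seed, so this does not bear on what else they could bind, which was not tested.

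The arrays read miR-342-3p with 2 probes that differ by 1 base at their 3′ end, so they are not independent of each other. They are printed 5′ to 3′, with the bases that pair with the seed in capitals. The files place them at chr12:109896898-109896912 and chr12:109896897-109896912 in mm9.
miR-342-3p probe of 16 bases: acgggtgcgatttctG
miR-342-3p probe of 17 bases: acgggtgcgatttctGT
miR-342-5p had 4 probes of 16 to 19 bases, of which the longest carried most of its signal. The files place that probe at chr12:109896852-109896869 in mm9.
miR-342-5p probe of 19 bases: ctcaatcacagataGCACC

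On all 16 arrays, 100% of the spots of both miR-342-3p probes were well above background, and no spot was saturated. The processed signal, in arbitrary units and averaged over both probes, was 44.6 and 31.9 in MP replicates 1 and 2. It was 53.8 and 45.9 in MDP. It was 107 and 128 in CDP. Among progenitors the signal was thus lowest in MP and highest in CDP on either design. Gr1+ monocytes gave 271 and 236. PDC gave 320 and 586. Every mature marrow array lay above every progenitor array. CD4-CD8- DC gave 734 and 1254. CD4+ DC gave 1438 and 1510. CD8+ DC gave 1132 and 1539. The 6 spleen DC arrays lay above all marrow arrays before any scaling.

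To compare arrays, each signal was divided by its array's scaling factor, which is the 75th percentile over the 88 miRNAs seen on every array, and put on the log2 scale. A level of 0 is thus the signal of a fairly bright miRNA of that array, and each step of 1 is a doubling. The level was -3.29 and -4.06 in MP (mean -3.67 ± 0.55, SD, n = 2). MP had the widest gap between replicates among the progenitors. It was -3.08 and -2.86 in MDP (mean -2.97 ± 0.16). It was -2.24 and -2.07 in CDP (mean -2.16 ± 0.12). No array of 1 progenitor population reached into the range of another. In Gr1+ monocytes the level was -0.94 and -1.03 (mean -0.98 ± 0.06). In PDC it was -0.52 and -0.58 (mean -0.55 ± 0.05). The replicates of both mature marrow populations lay close together. In CD4-CD8- DC it was 0.41 and 1.18 (mean 0.80 ± 0.54). In CD4+ DC it was 0.90 and 1.2 (mean 1.05 ± 0.21). In CD8+ DC it was 1.53 and 1.73 (mean 1.63 ± 0.14).

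From low to high the order was MP, MDP, CDP, Gr1+ monocytes, PDC, CD4-CD8- DC, CD4+ DC and CD8+ DC, on either array design taken alone. Of the neighbours in this order, CD4+ DC and CD4-CD8- DC overlapped, and the gap between their means, 0.25, was smaller than the SD of CD4-CD8- DC. The ranges of the other neighbours did not overlap. MDP and MP were 0.20 apart on design 1 and 1.2 on design 2, and the smaller of these gaps was less than the SD of MP. The places of the progenitors, monocytes and PDC, and of the spleen DC above them, were the same under all 8 signal processings tried. The order within the spleen DC was not. When arrays were scaled over all miRNAs or not scaled, CD4+ DC came out highest in the mean. In a bulk sample, fewer cells that hold a miRNA and less of it per cell cannot be told apart.

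**Figure D1:**
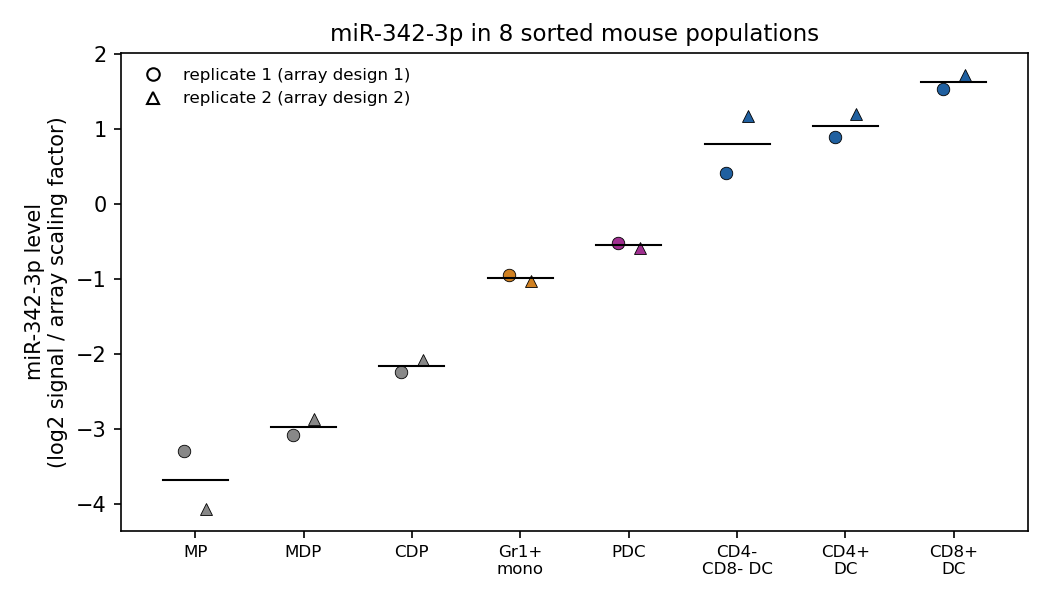
Level of miR-342-3p (vertical axis, log2 of the signal over the array's scaling factor) in each population, with circles for replicate 1, triangles for replicate 2 and a line at their mean. The mean is -3.67 in MP, -2.97 in MDP, -2.16 in CDP and 1.63 in CD8+ DC, and of neighbours in the order only CD4-CD8- DC and CD4+ DC overlap.

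Between progenitor stages, MDP exceeded MP by 0.70 ± 0.29 (log2 difference ± SE of the fit), a 1.63-fold higher signal. The difference was 0.21 without MP replicate 2 and 1.2 without MP replicate 1, and 0.40 both unscaled and under normexp background correction. CDP exceeded MDP by 0.82 ± 0.29, with 0.84 on design 1 and 0.79 on design 2. That was the highest difference of all 175 miRNAs between CDP and MDP, whose median was -0.07. Between MDP and MP it ranked 3 of 175. By limma, 0 of 175 miRNAs (0.00%) passed an adjusted p of 0.05 in the step to CDP, 26 at an unadjusted p under 0.05, and 1 and 3 passed the adjusted p with scaling over all miRNAs and under quantile normalization. Without the scaling between arrays the CDP step was 1.24, under quantile normalization it was 1.39 and under normexp it was 0.32. The settings therefore moved its size by more than its SE, and all kept it above 0.

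The monocyte branch and both DC branches lay above their progenitors. Gr1+ monocytes, the inflammatory type of marrow monocyte, exceeded MDP by 1.99 ± 0.29, a 3.97-fold higher signal, and ranked 2 of 175. PDC, the main producers of type I interferon, exceeded CDP by 1.61 ± 0.29, or 3.05-fold, and ranked 17 of 175. Spleen DC, taken as the mean of their 3 subsets, exceeded CDP by 3.31 ± 0.23, or 9.94-fold, and ranked 7 of 175. The difference for spleen DC was 3.19 on design 1 and 3.44 on design 2, so the designs gave about the same size. With the median of all 175 miRNAs (0.26) subtracted it was 3.06. Scaling over all miRNAs gave 2.60 for spleen DC against CDP and 1.08 for PDC against CDP. In that scaling CDP against MDP was 1.29, and under quantile normalization it was 1.39 against 1.05 for PDC over CDP, so which of these steps was larger depended on the scaling.

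Taken over stages, the 5 mature populations averaged a level of 0.39 and the 3 progenitor populations -2.93. The difference was 3.32 ± 0.15, with 3.15 on design 1 and 3.50 on design 2. Within marrow alone, where tissue is shared, PDC and Gr1+ monocytes averaged -0.77 against -2.93 in progenitors. That difference was 2.17 ± 0.18, or 4.50-fold, with 2.14 on design 1 and 2.19 on design 2. Each of the 2 probes gave nearly the same value, 3.30 for the shorter and 3.34 for the longer between mature cells and progenitors. Among the 175 miRNAs the difference ranked 3 over all stages and 4 within marrow.

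Among mature cells PDC lay between monocytes and spleen DC. PDC exceeded Gr1+ monocytes by 0.43 ± 0.29, with 0.78 unscaled and 0.17 under normexp. PDC lay 1.71 ± 0.23 below spleen DC, and Gr1+ monocytes lay 2.14 ± 0.23 below spleen DC. CD8+ DC, the cross-presenting subset, exceeded the other spleen DC by 0.71 ± 0.25, but by -0.040 with scaling over all miRNAs and by 0.15 unscaled. CD4+ DC exceeded CD4-CD8- DC by 0.25 ± 0.29, and without CD4-CD8- DC replicate 1 the difference was -0.13.

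**Figure D2:**
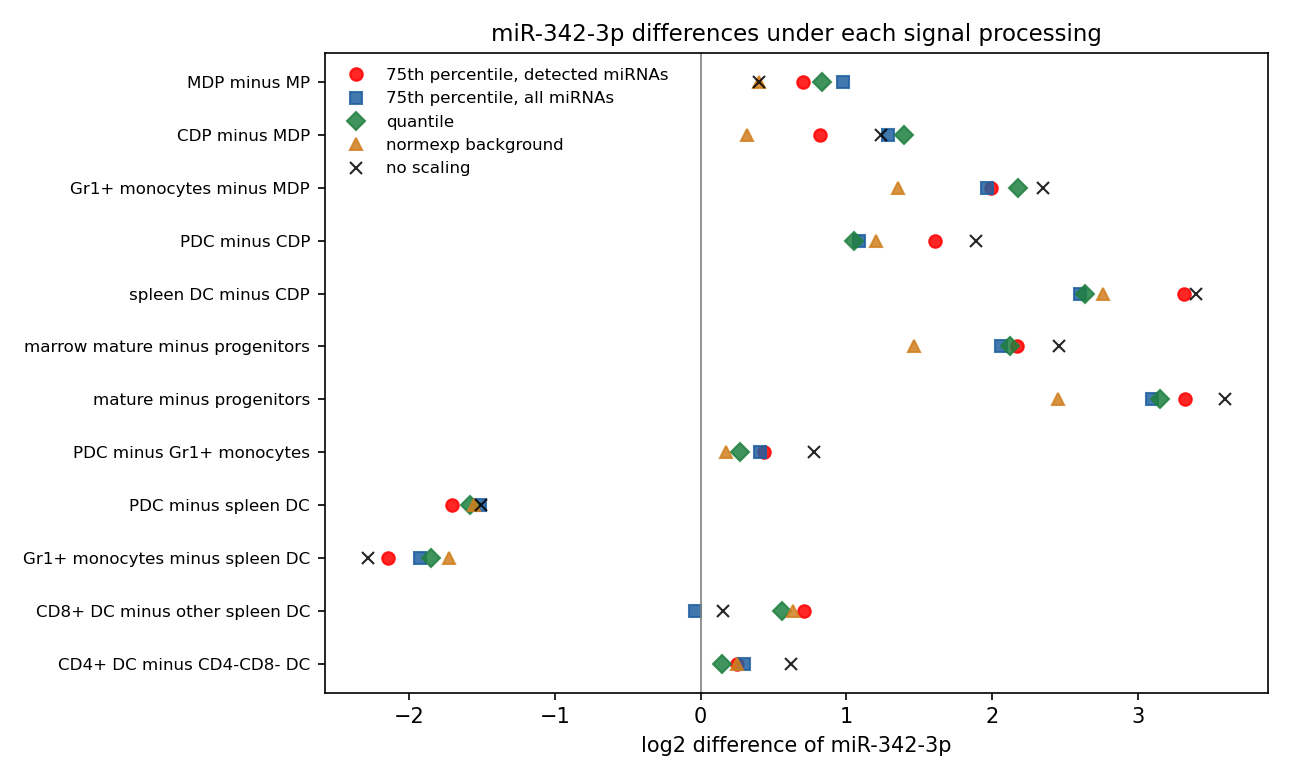
Log2 difference of miR-342-3p (horizontal axis) for 12 comparisons of populations (rows, first-named minus second-named), each under 5 ways of processing the signals (symbols: both percentile scalings, quantile normalization, normexp and no scaling). Every comparison stays on 1 side of 0 except CD8+ DC minus other spleen DC, which runs between -0.040 and 0.71.

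The other arm of the hairpin, miR-342-5p, was read by probes of its own that the choice of miR-342-3p did not use, so its values are not fixed by that choice. It was detected on all 6 spleen DC arrays and on PDC replicate 2, and on 0 of the other 9 arrays. Detected here means that at least 0.5 of the spots of any of its probes were well above background. Its longest probe gave 54.0 and 57.4 in CD8+ DC, and 64.0 and 62.5 in CD4+ DC. It gave 38.0 and 51.6 in CD4-CD8- DC. It gave 15.4 and 33.8 in PDC, with 1 and 5 of 5 spots above background. Gr1+ monocytes gave 17.8 and 14.6 with 1 and 2 of 5 spots above background, CDP gave 10.9 and 8.42 with 0 of 5, and MDP and MP gave 1.24 to 5.12 with 0 of 5. The 3 spleen DC subsets were all brighter than every marrow array.

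Averaged over its 4 probes, miR-342-5p stood above the floor, the lowest value used in the fit, on 4 arrays: both CD8+ DC arrays and replicate 2 of CD4+ DC and of CD4-CD8- DC. The other 12 arrays lay at the floor. It entered the 175 tested miRNAs through the spleen DC alone, the populations that showed it on both of their arrays. A test for a higher level there is thus conditioned on the filter, and a fitted difference from a population at the floor is set by the floor. The limma fit gave an adjusted p of 0.035 over the 8 populations, where 128 of 175 miRNAs (73.1%) were called, and nothing is read from it.

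Because CDP and Gr1+ monocytes were not well above background for miR-342-5p, the longest probe gives only a bound. By that probe spleen DC were at least 3.55-fold higher than CDP and at least 3.03-fold higher than Gr1+ monocytes. For each dim array the higher of its own value and the lowest detected probe signal was taken. With the mean of the 4 probes the bounds were 1.10-fold and 1.02-fold, so their size rests on the longest probe. The level of 1 probe cannot be set against that of another, so the arms were not compared in amount. Over the 16 arrays the 2 arms had r = 0.74, or 0.86 with the brightest probe of each arm. For the 0.74, miR-342-5p lay at the floor except in CD8+ DC and replicate 2 of CD4+ DC and of CD4-CD8- DC.

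**Figure D3:**
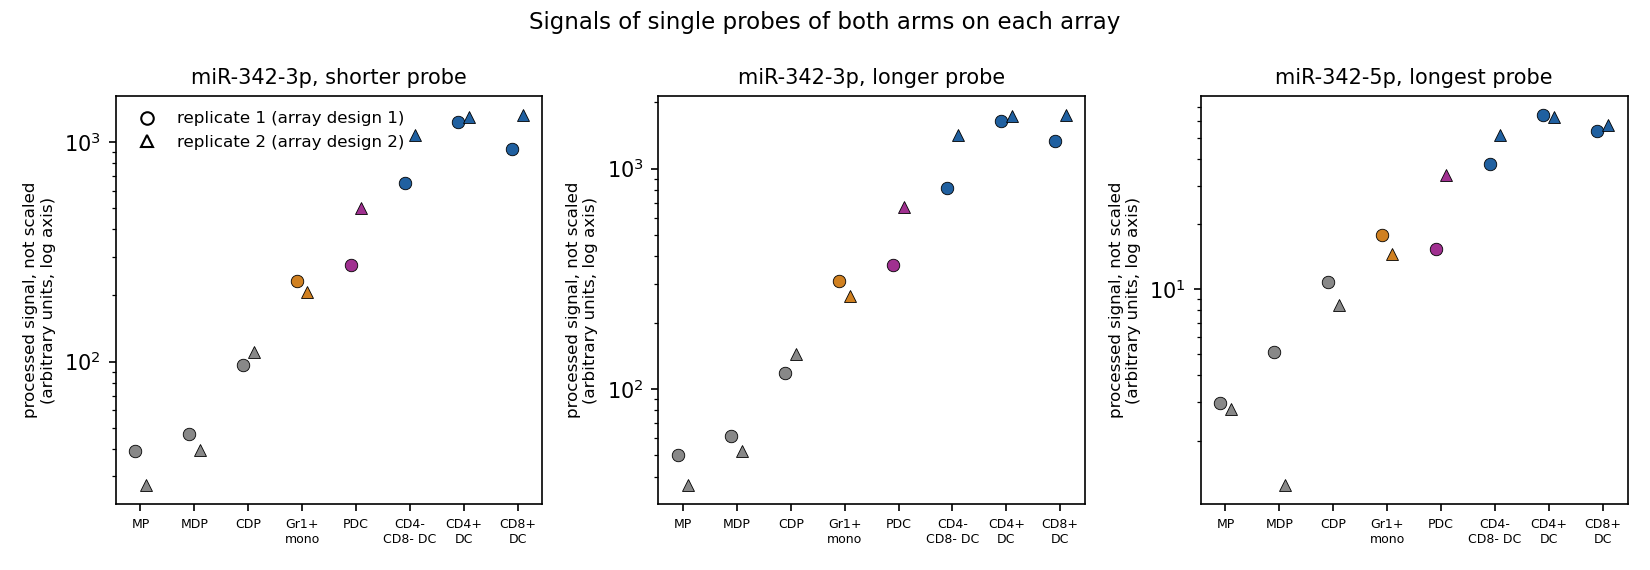
Processed signal before scaling (vertical log axis, arbitrary units) of both miR-342-3p probes and of the longest miR-342-5p probe on each array, by population (circles replicate 1, triangles replicate 2). In all 3 panels the 6 spleen DC arrays lie above every marrow array.

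The lymphocyte miRNAs were set beside miR-342-3p because it is known from lymphocytes, which are numerous in spleen and marrow. miR-150, abundant in mature B and T cells, moved with it in part. Its level was -1.44 and -0.83 in CD8+ DC, -2.49 and -1.43 in CD4+ DC, and -1.33 and -0.12 in CD4-CD8- DC. It was -1.11 and -0.55 in PDC. It was -4.07 and -5.54 in Gr1+ monocytes and -4.90 and -4.87 in CDP, against a floor of -5.30 for design 1 and -5.78 for design 2. It was -5.30 and -5.74 in MDP, where it was detected on 0 of 2 arrays, and -4.17 and -3.99 in MP. Spleen DC and PDC thus held far more miR-150 than monocytes and progenitors.

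Gr1+ monocytes showed miR-342-3p at 1.99 above MDP, and miR-150 was 0.71 ± 0.56 above MDP (adjusted p = 0.407). In MDP miR-150 lay at or near the floor, so the size of its difference is set by the floor. In PDC miR-150 exceeded CDP by 4.05 ± 0.56 (adjusted p = 0.000313), and in spleen DC by 3.61 ± 0.46 (adjusted p = 0.000124), where 98 of 175 miRNAs (56.0%) were called. CD4-CD8- DC, which were not stated to be sorted against B220, had the highest mean miR-150 of the spleen DC (-0.73 ± 0.85) and the lowest mean miR-342-3p. In this scaling CD8+ DC had the highest miR-342-3p, with miR-150 between the other subsets. With scaling over all miRNAs or none, CD4+ DC had the highest mean miR-342-3p instead. The miR-342-3p ranges of CD4-CD8- DC and CD4+ DC overlapped. The summed scaled signal of the 5 lymphocyte markers other than miR-342 ran from 0.575 to 1.65 over spleen DC arrays, 2.74 to 3.43 in PDC, 0.444 to 0.483 in Gr1+ monocytes and 1.01 to 1.49 in progenitors. As a sum the list was thus highest in PDC and overlapped between spleen DC and progenitors. The part of lymphocyte RNA in the levels of PDC and spleen DC was not tested.

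The miR-181 family, which is known from early B and T cells, makes up the rest of the lymphocyte list. Of 6 tested members of the lymphocyte list other than miR-342-3p, 2 were higher and 3 were lower in mature cells than in progenitors, where 111 of 175 miRNAs (63.4%) were called, 68 of them higher (38.9%) and 43 lower (24.6%). With scaling over all miRNAs the split of all 175 was 46 higher and 49 lower, and that of the list was 1 higher and 4 lower. The list's median was -0.48, against 0.14 over all tested. miR-150 rose by 2.93 ± 0.29 (adjusted p = 1.66e-05), and miR-342-5p, which passed the filter only through spleen DC, was the other member counted as higher. miR-181b fell by 1.86 (log2 difference -1.86 ± 0.08, adjusted p = 8.17e-08), miR-181d fell by 2.18 and miR-181c fell by 0.91. miR-181a was -0.06 ± 0.07 (adjusted p = 0.488), and under both other scalings it fell as well, by 0.28 and 0.17, while miR-342-5p was no longer called. miR-181a was highest in PDC, at 0.61 and 0.83, above its level of -2.26 to -1.05 in the other 4 mature populations.

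Within marrow the same list had 2 members higher and 3 lower, where 88 of 175 miRNAs (50.3%) were called, 49 of them higher (28.0%) and 39 lower (22.3%). The 2 that rose were miR-150 (2.01, adjusted p = 0.00127) and miR-181a (0.46, adjusted p = 0.00126). In PDC against CDP, 3 members rose and 0 fell, where 66 of 175 (37.7%) were called, 45 of them higher (25.7%). With scaling over all miRNAs 3 members rose and 1 fell, and all 175 split into 26 higher and 39 lower. In Gr1+ monocytes against MDP, 0 rose and 4 fell, where 66 of 175 (37.7%) were called, 31 of them lower (17.7%). The 4 that fell were the miR-181 members. miR-342-3p was higher than the progenitor in both branches.

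**Figure D4:**
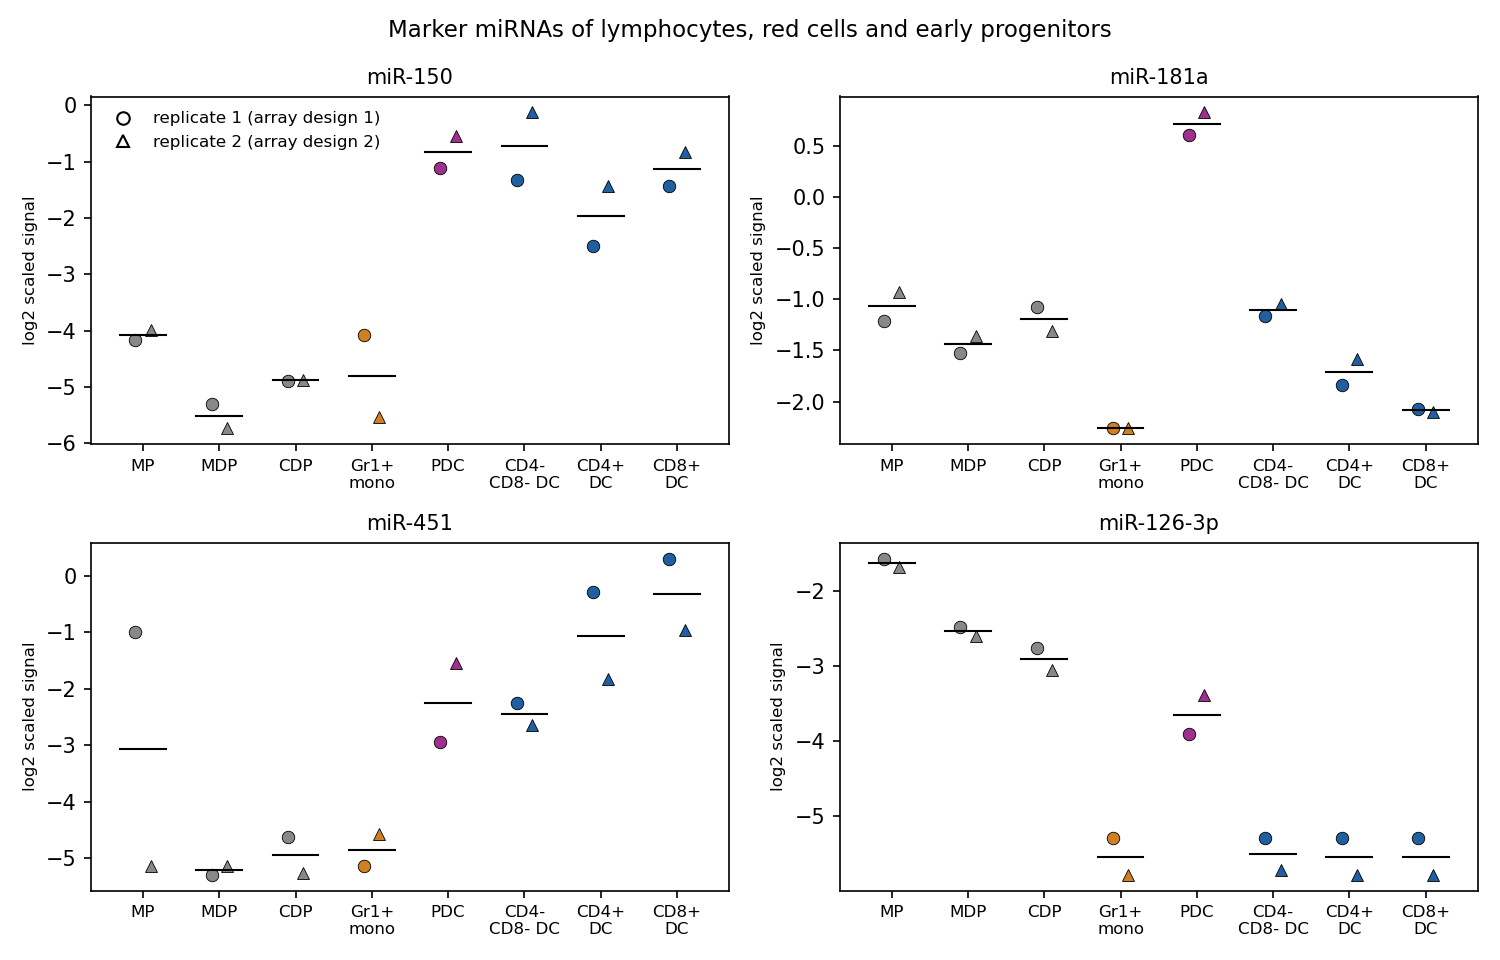
Log2 scaled signal (vertical axes) of miR-150 and miR-181a (lymphocyte list), miR-451 (red cells) and miR-126-3p (early progenitors) on each array by population, with circles for replicate 1, triangles for replicate 2 and a line at the mean. miR-150 lies at -2.49 or above on every PDC and spleen DC array and at -3.99 or below on every monocyte and progenitor array, and miR-451 is high in MP replicate 1 alone among progenitors.

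Of the red cell miRNAs, miR-451 was also higher in spleen DC than in CDP, by 3.67 (adjusted p = 0.00593). It was 0.31 and -0.96 in CD8+ DC, -0.29 and -1.83 in CD4+ DC, and -2.25 and -2.65 in CD4-CD8- DC. It was -2.95 and -1.54 in PDC and -5.15 and -4.57 in Gr1+ monocytes. CDP had -4.63 and -5.26, and MDP, where it was not detected, -5.30 and -5.14. MP replicate 1 had -1.0 and MP replicate 2 had -5.14. The MP replicate with more miR-451 also had the higher miR-342-3p. Of the 3 red cell markers, miR-144 was detected on 0 arrays and miR-486 on 3, and miR-486 in spleen DC was 0.23 from CDP (adjusted p = 0.133). The summed scaled signal of the 3 ran from 0.171 to 1.29 over the spleen DC arrays, from 0.130 to 0.358 in PDC, from 0.0292 to 0.0481 in Gr1+ monocytes and from 0.0246 to 0.536 over the progenitor arrays. Its part in the result was not tested.

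Most markers of non-blood tissue were not detected. Of 13 stromal, muscle and epithelial miRNAs, 11 were detected on 0 arrays, and miR-200b and miR-200c were each detected on 5. Those detections were in spleen DC and, for miR-200c, in PDC replicate 2. miR-200b passed the filter only through spleen DC, so its calls are conditioned on the filter and nothing is read from them. It stood above CDP there (0.46, adjusted p = 0.0248), where 98 of 175 miRNAs (56.0%) were called. In mature cells it stood above progenitors (0.28, adjusted p = 0.0277), where 111 of 175 (63.4%) were called. Its part in the result was not tested.

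A list of early progenitor miRNAs was set beside miR-342-3p as well. It was chosen with earlier results of these data known, so it is no check of the sorts. The members named below were taken by the smallest p between mature cells and progenitors. Of 7 tested members of the stem and early progenitor list, 0 were higher and 6 were lower in mature cells than in progenitors, with a list median of -1.40. Over all 175 miRNAs 38.9% were higher and 24.6% lower. miR-126-3p, known from stem cells and endothelium, was not detected in Gr1+ monocytes or spleen DC, and was -3.65 ± 0.36 in PDC. It was -2.90 in CDP, -2.54 in MDP and -1.62 in MP. miR-196b, from the Hox clusters, and miR-130a, known from human blood progenitors, had the same shape and were not detected in Gr1+ monocytes or spleen DC. All 3 were detected on both PDC arrays. Among progenitors all 3 had their highest mean in MP and their lowest in CDP, the reverse of the order of miR-342-3p. Between CDP and MDP 0 of 175 miRNAs were called in this scaling. The list's median there was -0.77, and -0.30 with scaling over all miRNAs.

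The members of the myeloid list moved in different ways. Of 8 tested members, 5 were higher and 1 was lower in mature cells than in progenitors, with a list median of 1.15, against 38.9% higher and 24.6% lower over all 175. Scaling over all miRNAs and quantile normalization each gave 5 higher and 2 lower. In Gr1+ monocytes against MDP 5 were higher and 1 lower, against 20.0% higher and 17.7% lower over all 175. In PDC against CDP 4 were higher and 2 lower, where 37.7% of all 175 were called, 25.7% higher. miR-22 and both arms of miR-142 were higher in both, as miR-342-3p was. miR-22 stood 4.35 above MDP in monocytes and 3.26 above CDP in PDC. It lay at the floor in MDP and at or near it in CDP, so these sizes are set by the floor. It passed the filter only through mature populations, so its calls in these counts are conditioned on the filter. miR-146a, an inhibitor of Toll-like receptor signalling, rose by 3.81 ± 0.16 (adjusted p = 8.17e-08). Its mean level was 0.35 to 1.15 in spleen DC and -1.07 in PDC. It was -4.54 in Gr1+ monocytes, -4.84 in CDP and -4.60 in MDP. In monocytes miR-146a was 0.07 ± 0.31 above MDP (adjusted p = 1), where miR-342-3p stood 1.99 above MDP. miR-223, which marks granulocyte and monocyte cells, was highest in Gr1+ monocytes at 4.42 and lowest in PDC at 0.30. The order of its levels over the populations was not that of miR-342-3p.

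The miRNAs whose levels ran closest to miR-342-3p were found by Pearson's r over the 16 arrays, after the mean of each array design was removed. The points share the design and the scaling, and 172 miRNAs were ranked. The median r was 0.28, with 16 miRNAs above 0.8 and 19 below -0.8. The 6 highest were miR-142-5p (0.95), miR-350 (0.94), miR-142-3p (0.94), miR-22 (0.93), miR-423-5p (0.90) and miR-195 (0.90), and the next had 0.89. The 4 lowest were miR-92a (-0.92), miR-25 (-0.92), miR-20b (-0.91) and miR-23b (-0.91), and the next had -0.90. miR-342-5p ranked 25th.

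Their mature sequences are shown, with the seed in capitals, because none of the 6 shares the seed of miR-342-3p. They are credited to RefSeq for GRCm38.p6.
miR-142-5p: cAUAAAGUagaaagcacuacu
miR-350: uUCACAAAgcccauacacuuuc
miR-142-3p: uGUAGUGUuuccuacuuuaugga
miR-22: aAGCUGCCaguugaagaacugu
miR-423-5p: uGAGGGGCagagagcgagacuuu
miR-195: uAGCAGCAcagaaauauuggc
Among the opposite ones, miR-92a and miR-25 share 1 seed.
miR-92a: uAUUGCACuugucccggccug
miR-25: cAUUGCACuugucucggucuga
miR-20b: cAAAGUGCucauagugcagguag

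Both arms of miR-142, which is known as a miRNA of all blood cells, were among the highest. miR-142-5p had the highest r, and miR-350 lay between the arms. miR-142-5p had mean levels of -3.17 in MP, -3.30 in MDP and -3.13 in CDP. It had -2.18 in Gr1+ monocytes and -1.88 in PDC. It had -1.32 in CD4-CD8- DC, -0.98 in CD4+ DC and -1.16 in CD8+ DC. Its progenitor means lay close together in this scaling, and every mature population was higher. The difference between mature cells and progenitors was 1.70 ± 0.09, against 3.32 ± 0.15 for miR-342-3p. miR-22, known to be induced in maturing human monocytes, had -0.46 in CD4+ DC and -1.19 in Gr1+ monocytes, and it was detected on 1 of 2 MP arrays, 0 of 2 MDP arrays and 1 of 2 CDP arrays. miR-350 stood at -3.89 in MP, -3.74 in MDP, -3.73 in CDP and -1.84 in CD4+ DC.

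Of these 6, the 4 that were detected on all 16 arrays can be compared at the step between progenitors. Against 0.82 for miR-342-3p between CDP and MDP, miR-142-5p had 0.17 ± 0.17, miR-350 had 0.02 ± 0.11, miR-142-3p had 0.24 ± 0.19 and miR-423-5p had -0.11 ± 0.13. With scaling over all miRNAs the 4 had 0.64, 0.49, 0.71 and 0.36 in the same order, against 1.29 for miR-342-3p. miR-22 and miR-195 were too near the floor in progenitors to tell. miR-195 was detected on 0 of 2 arrays of both CDP and MDP. The 6 were chosen for their likeness, and these differences are a description.

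miR-92a and miR-20b, of clusters known to act in proliferating progenitors, ran the other way. miR-92a had mean levels of 2.66 in MP, 2.58 in MDP and 2.15 in CDP. It had 1.15 in Gr1+ monocytes and 1.13 in PDC. The spleen DC had 1.18 in CD4-CD8- DC, 0.63 in CD4+ DC and 0.97 in CD8+ DC. Mature cells differed from progenitors by -1.45 ± 0.06 for miR-92a, by -1.66 ± 0.07 for miR-20b, by -0.51 ± 0.07 for miR-25 and by -1.27 ± 0.08 for miR-23b. miR-92a and miR-20b in CDP stood at -0.42 ± 0.11 and -0.44 ± 0.13 from MDP, where 0 of 175 miRNAs were called, and with scaling over all miRNAs these were 0.05 and 0.03. With scaling over all miRNAs, r was -0.68 for miR-25 and 0.73 for miR-195, the farthest from the values above.

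**Figure D5:**
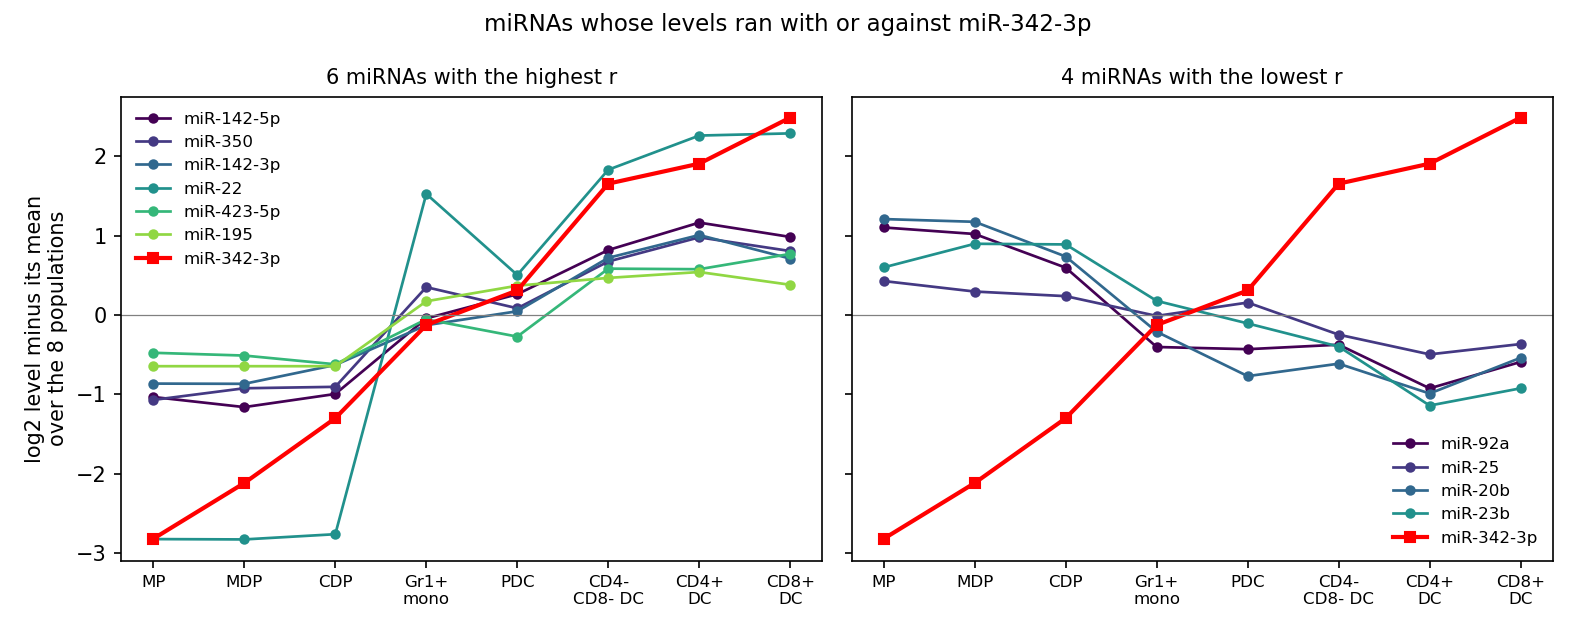
Mean level of each miRNA per population minus its mean over the 8 populations (vertical axis, log2), for the 6 miRNAs with the highest r (left) and the 4 with the lowest (right), with miR-342-3p in red in both panels. In progenitors miR-22 and miR-195 lie at or near the floor. On this axis miR-342-3p stands at -2.82 in MP, -2.11 in MDP and -1.30 in CDP.

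Few neighbours on the chromosome were detected. The files place 79 other miRNAs of both designs within 2 Mb of miR-342-3p on chromosome 12, and 74 of them were detected on 0 arrays. Of the 5 that were detected, 4 were tested, and 2 were higher and 1 was lower in mature cells than in progenitors, against 38.9% higher and 24.6% lower over all 175. miR-345-5p, the nearest of them at 178 kb, fell by 0.54 (log2 difference -0.54 ± 0.06, adjusted p = 3.76e-05). Its level was -4.96 and -4.70 in CD4-CD8- DC and -4.52 and -4.50 in CDP, while PDC differed from CDP by -0.026 (adjusted p = 1), where miR-342-3p was 1.61 higher. miR-1906, which the files place at 2 positions, rose by 0.50 ± 0.06 (adjusted p = 0.000101). miR-370, detected on 5 arrays and on none of the progenitors, was the other member counted as higher (0.54 ± 0.12). It passed the filter only through CD4+ DC and CD8+ DC, so that call is conditioned on the filter. miR-494 was 0.08 ± 0.48 (adjusted p = 0.909). Its replicates lay far apart, at -1.95 and 0.61 in PDC. miR-668 was detected on 8 arrays, all of design 2, and was not tested. Within marrow 1 of the 4 was called, miR-345-5p at -0.48 (adjusted p = 0.000547). There 88 of 175 miRNAs (50.3%) were called, 39 of them lower (22.3%). Many of these neighbours lie in the imprinted Dlk1-Dio3 region, known to be expressed mainly in embryo and brain.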

How the data were processed

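RNA of 8 sorted mouse populations was hybridised to 1-colour Agilent miRNA arrays, 16 in all. Spot intensity had been read and background-subtracted with Agilent Feature Extraction, version 10.7.3.1 per the file headers and 9.1 per the submitters' processing notes, and the processed signals were used as deposited, linear and unscaled. The deposited series tables held the same signals, with 3 of 226800 spots unequal at 3 digits.

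Outlier spots were left out, spots were averaged per probe and probes per miRNA. Detection and scaling are as given with the results, the scaling factors ran from 333 to 876, and values were raised to a floor per design (-5.30 and -5.78, log2). On an array 16.7% to 25.4% of spots were well above background, 116 to 174 of 604 miRNAs were detected and 21 to 57 of the 175 tested lay at the floor. The number of arrays limits the precision.

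Fits used limma 3.58.1 (R 4.3.3) on the 175 miRNAs that 1 or more populations showed on both of their arrays, with population means and the array design as a block, and were adjusted by Benjamini-Hochberg over all 175. The replicate numbers pair the arrays because they mark the design. Deviations of same-numbered arrays correlated in all 28 pairs of populations (r from 0.297 to 0.917, median 0.572). The fit was tested on simulated data with independent noise. The simulation had no floor and no deviations shared by arrays of a design, so it does not cover these.

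Named miRNAs are both arms of miR-342, the 6 most and 4 least correlated, the lymphocyte list, up to 3 of each other list with the smallest p between mature cells and progenitors, and detected neighbours within 2 Mb. miR-223, of the myeloid list, was added after its values were seen. The miRNA, the lists and the rules were chosen with earlier results of these data known. Lists are described by counts and medians alone. Alternatives were scaling over all miRNAs, quantile normalization within a design, normexp with offset 50, the brightest probe, no block, other filters, the series tables and each array left out. Probe positions are mm9 per the files, and RefSeq sequences are GRCm38.p6.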

Additional observations from a re-analysis of the deposited data

How the results depend on the processing

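Of the 12 differences of miR-342-3p, 10 kept their direction under all alternatives run, and 2 turned. CD8+ DC minus other spleen DC was 0.71, but -0.040 scaled over all miRNAs and 0.15 unscaled. The unscaled and shorter-probe settings were chosen after seeing the data. CD4+ DC minus CD4-CD8- DC was 0.25, 0.62 unscaled, and -0.13 to 0.64 with 1 array left out, the low end without CD4-CD8- DC replicate 1. Scaled over all miRNAs, other values were 1.29 (CDP minus MDP), 1.08 (PDC minus CDP), 2.60 (spleen DC minus CDP), 2.06 (marrow mature minus progenitors) and 0.41 (PDC minus Gr1+ monocytes). Under quantile normalization these were 1.39, 1.05, 2.63, 2.12 and 0.27. Under normexp they were 0.32, 1.2, 2.76, 1.46 and 0.17. Normexp also gave 1.35 for Gr1+ monocytes minus MDP and 2.45 for mature minus progenitors. It gave -1.73 for Gr1+ monocytes minus spleen DC and 3.90 for the highest minus the lowest population. The median of all 175 miRNAs moved under normexp too, to 0.72 for Gr1+ monocytes minus MDP and 0.86 for Gr1+ monocytes minus spleen DC. With it subtracted, miR-342-3p was 0.63 and -2.58 there, against 1.99 and -2.04 in the main scaling. For PDC minus Gr1+ monocytes the normexp median was -0.96, and miR-342-3p less that median was 1.13, against 0.43 in the main scaling. Unscaled, CDP minus MDP was 1.24, Gr1+ monocytes minus MDP 2.35, PDC minus CDP 1.89, marrow mature minus progenitors 2.46, mature minus progenitors 3.59 and PDC minus Gr1+ monocytes 0.78. The brightest probe gave 0.86 for CDP minus MDP and 0.48 for PDC minus Gr1+ monocytes, and the shorter probe 0.41 for PDC minus Gr1+ monocytes. With 1 array left out, CDP minus MDP ran from 0.74 to 0.89, PDC minus Gr1+ monocytes from 0.33 to 0.54 and marrow mature minus progenitors from 2.00 to 2.33. miR-342-5p passed the filter only through spleen DC, and nothing is read from its fitted values, given here for completeness. Its calls were lost without the replicate block, at the same differences of 0.56 (spleen DC minus CDP, adjusted p = 0.0649), 0.34 (mature minus progenitors, 0.0727), -0.56 (PDC minus spleen DC, 0.0968) and -0.56 (Gr1+ monocytes minus spleen DC, 0.0895), with 0.0982 over the 8 populations. They were lost scaled over all miRNAs (0.39, 0.24, -0.39 and -0.39, adjusted p = 0.437 over populations), under quantile normalization (0.39, 0.24, -0.39 and -0.39, 0.348) and under normexp (0.12, 0.21 and -0.12, 0.314), where Gr1+ monocytes minus spleen DC was 0.85 (adjusted p = 0.0363) and CD4+ DC minus CD4-CD8- DC -0.038. CD8+ DC minus other spleen DC was 0.55, but -0.073 scaled over all miRNAs. With 1 array left out the first 4 ran from 0.43 to 0.69, 0.28 to 0.40, -0.69 to -0.43 and -0.69 to -0.43, the adjusted p over populations from 0.0155 to 0.204, CD8+ DC minus other spleen DC from 0.40 to 0.70 and CD4+ DC minus CD4-CD8- DC from -0.30 to 0.31. The cause of these changes was not tested. Counts of called miRNAs under normexp were 56 (mature minus progenitors), 37 (marrow mature minus progenitors), 42 (spleen DC minus CDP), 31 (PDC minus CDP), 11 (Gr1+ monocytes minus MDP), 16 (PDC minus spleen DC), 125 (Gr1+ monocytes minus spleen DC) and 53 over the 8 populations, against 111, 88, 98, 66, 66, 75, 72 and 128. With the miRNAs detected on all 16 arrays alone, fewer were tested and 81 were called over the populations. The planned fit over all 604 miRNAs was replaced, after its result was seen, by one over the 209 above the floor on any array, because the others do not vary. Signals at the floor limit what can be said of miR-342-5p, while miR-342-3p was well above background on all 16 arrays.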
